A study of Mus musculus with 9 samples.

Results

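The genes described here are 79 chromatin remodelers and histone lysine enzymes of the mouse, out of 32137 genes counted in bile duct organoids. They were chosen by name: every gene whose symbol begins with Chd, Kdm, Kmt2, Kmt5, Smarc, Arid, Brd, Setd, Ep400, Ash1l or Pbrm1 and a family number where one applies, leaving out names marked as pseudogenes and the sex-linked Kdm5c, Kdm5d and Kdm6a. The names alone define the set, which was proposed with earlier results of these data known. By name they fall into 15 subunits of the SWI/SNF complexes, 15 other SNF2-type ATPases, 19 lysine methyltransferases and 16 lysine demethylases. The rest are 7 other ARID-domain genes, 5 other bromodomain genes and 2 genes named for the opposite strand of a member (Kdm6bos and Brd3os). Brd3os is annotated as protein-coding and lies outside Brd3. Kdm4dl, counted as a demethylase, is annotated as an unprocessed pseudogene. The classes follow gene names and not a measured enzyme activity. Enough reads for a test were found for 75 of them. Arid3c (10 reads over all 9 libraries), Kdm4d (31), Kdm4dl (3) and Smarca1 (26) were too low.

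Remodelers use ATP to slide, evict or exchange nucleosomes, and the lysine enzymes write and erase methyl groups on histone tails that mark promoters, enhancers, gene bodies or silent chromatin. SWI/SNF complexes are built around one of the ATPases Smarca4 and Smarca2, and Pbrm1, Arid2, Arid1a and Arid1b define which variant of the complex is formed. In the biliary epithelium, as elsewhere, these genes are expressed broadly. Many of them encode very large proteins and therefore have long transcripts.

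The organoids came from a single male mouse of mixed background with the genotype Axin2CreERT2+/-; R26-LSL-tdTom+/-, in which 4-hydroxytamoxifen (4-OHT) makes cells that express the Wnt target Axin2 turn on the red reporter tdTom. An expansion phase of 2 to 4 days was followed by 11 days of differentiation. During the last 24 h every culture received 3 uM dexamethasone and 500 nM 4-OHT, and the treated ones also 100 ng/ml Rspo1 (R-spondin 1, which strengthens Wnt signaling). Sorting gave 3 groups of 3 libraries: tdTom-negative cells without Rspo1 (untreated), tdTom-negative cells after Rspo1 (Rspo1-negative) and tdTom-positive cells after Rspo1 (Rspo1-positive). Each group holds 1 library from each of passages 5, 6 and 10. The labels list no tdTom-positive cells without Rspo1, so reporter state and Rspo1 cannot be told apart between the Rspo1-positive and untreated groups. The passages are repeats of 1 animal's line, so the p-values measure the spread between these cultures and not between animals.

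The libraries held 23423979 to 37351448 counted reads. Bile duct markers (7 genes, among them Krt19 and Epcam) summed to 5728 to 8813 CPM (counts scaled to library size) in every library. Mesenchymal (4 of 6 listed genes found) and endothelial markers (3 of 4) stayed under 2 CPM in sum. Hepatocyte markers lay at 164 to 545, mostly Ttr (149 to 534), with Alb at 3.91 to 15.3 and 3 of the 6 genes under 1 CPM in all libraries. Blood and immune markers (3 of 5 found) lay at 5.37 to 23.2, nearly all of it Cd68 (5.34 to 23.0). A list of 6 cell cycle genes moved with the groups, at 33.9 to 93.6 CPM in sum in untreated, 88.4 to 151 in Rspo1-negative and 373 to 657 in Rspo1-positive libraries. The nuclear RNA Malat1 lay at 664 to 703 CPM in untreated, 186 to 646 in Rspo1-negative and 219 to 532 in Rspo1-positive libraries. Fos, an immediate early gene that rises with handling of cells, lay at 70.0 to 183, 55.5 to 170 and 201 to 582 CPM in the same order, and the whole list of 7 RNA quality and dissociation genes at 925 to 1604, 642 to 1089 and 1259 to 1661 in sum. Mitochondrial genes held 1.73 to 2.89% of the counts in untreated, 1.14 to 1.52% in Rspo1-negative and 1.30 to 1.63% in Rspo1-positive libraries, so that untreated libraries were above both other groups. The part of any of these in the values of the chromatin genes was not tested. Less RNA per cell and fewer expressing cells cannot be told apart in these bulk libraries. Values below are CPM after TMM scaling, which corrects for library composition, and a gene is called changed at an adjusted p under 0.05 in edgeR's quasi-likelihood test with passage as a block. P-values were adjusted by Benjamini-Hochberg over 17011 genes.

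By length-corrected level, the deposited FPKM (reads per kilobase of transcript, scaled to library size), Chd4 was the highest of the set, with a median of 53.4 over the 9 libraries. Chd4 is the ATPase of the NuRD complex. The next were Brd2 (48.5), a reader of acetylated histones, Kmt5a (44.1), which monomethylates H4K20, Smarcd2 (37.3), a SWI/SNF subunit, and Smarca4 (30.4). Kdm7a, a demethylase of H3K9 and H3K27, had a median of 3.96 FPKM, Arid5a, an RNA-binding ARID protein, 1.48 and Chd7 1.47.

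The sequences of 4 members show a property with which the fold changes ran, the base composition of the transcript. For each, the 120-base stretch of coding sequence inside 1 exon whose GC content is nearest to that of the whole coding sequence is shown, from GENCODE vM21 transcripts of build GRCm38, with G and C in capitals. Kdm7a (exon 4, chr6:39173296-39173415, minus strand) and Pbrm1 (exon 6, chr14:31032428-31032547, plus strand) were lower in Rspo1-negative than in untreated cells. Arid5a (exon 4, chr1:36318488-36318607, plus strand) and Kdm4b (exon 3, chr17:56353020-56353139, plus strand) were higher.
Kdm7a: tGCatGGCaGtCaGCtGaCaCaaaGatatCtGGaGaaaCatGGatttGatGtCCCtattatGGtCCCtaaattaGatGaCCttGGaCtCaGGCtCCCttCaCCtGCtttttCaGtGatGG
Pbrm1: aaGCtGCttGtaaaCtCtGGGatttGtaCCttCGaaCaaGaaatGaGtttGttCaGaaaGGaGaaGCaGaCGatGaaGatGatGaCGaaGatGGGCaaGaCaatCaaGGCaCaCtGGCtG
Arid5a: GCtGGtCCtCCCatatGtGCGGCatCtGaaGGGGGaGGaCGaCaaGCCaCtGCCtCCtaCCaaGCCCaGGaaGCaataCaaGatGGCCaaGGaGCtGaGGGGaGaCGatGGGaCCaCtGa
Kdm4b: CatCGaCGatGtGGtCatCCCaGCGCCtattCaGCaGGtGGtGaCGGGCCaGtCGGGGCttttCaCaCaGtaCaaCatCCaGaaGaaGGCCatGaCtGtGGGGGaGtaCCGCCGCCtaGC
G and C make up 45.2% of the coding sequence of Kdm7a and 43.9% of that of Pbrm1, against 59.5% in Arid5a and 59.0% in Kdm4b. These 4 are examples, and not every member ran this way. Setd1b (61.8%), Kdm6b (61.7%), Arid1b (60.3%) and Arid1a (59.6%) have coding sequences richer in G and C than Arid5a, yet were called lower in Rspo1-negative cells.

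The first comparison asked how cells that saw Rspo1 but did not turn on the reporter differed from untreated cells. In Rspo1-negative cells 33 of the 75 members tested were lower and 5 higher, where 20% of all genes tested were lower and 15.5% higher. The members' median log2 fold change was -0.40, against -0.01 over all genes, and 57 of the 75 lay below 0. Methyltransferases (10 lower and none higher of 19), SNF2 ATPases outside SWI/SNF (8 and none of 14) and demethylases (6 lower, 1 higher of 14) held most of the falls. In 30 members every Rspo1-negative library lay below every untreated one, while 20% of all genes did so. In 5 members every Rspo1-negative library lay above, against 16.4% of all genes. Without the passage block 24 members were lower and 1 higher, and the share of all genes in that fit is not given.

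Kdm7a fell the most. Its CPM was 55.1, 59.3 and 72.6 in the untreated libraries of passages 5, 6 and 10, then 13.5, 15.5 and 7.71 in the Rspo1-negative and 40.8, 28.7 and 39.1 in the Rspo1-positive ones. The 3 groups did not overlap, with the Rspo1-positive libraries in between. Its log2 fold change from untreated to Rspo1-negative cells was -2.35 (SE 0.24, edgeR adjusted p = 0.000163).

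Among the methyltransferases, Kmt2c, an enhancer H3K4 monomethyltransferase, showed 69.4, 63.0 and 101 CPM in untreated, 20.6, 42.8 and 19.4 in Rspo1-negative and 78.3, 65.4 and 71.8 in Rspo1-positive libraries. Every Rspo1-negative library was below all 6 others, and the fold change against untreated was -1.53 on the log2 scale (SE 0.28, edgeR adjusted p = 0.00223). Ash1l, which methylates H3K36, read 102, 90.2 and 112 CPM in untreated, 32.1, 52.4 and 24.5 in Rspo1-negative and 111, 97.0 and 111 in Rspo1-positive libraries. Its fall was -1.52 (SE 0.23, edgeR adjusted p = 0.000709). Setd2, the enzyme of H3K36 trimethylation, followed at -1.34 (SE 0.20). Kmt5b, which writes H4K20 dimethylation, fell by 1.28 and Kmt2e by 1.03.

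Kmt5a stood apart from this subgroup by its tight groups: 117, 124 and 124 CPM in untreated, 77.5, 80.6 and 79.8 in Rspo1-negative, and 125, 140 and 124 in Rspo1-positive libraries. The Rspo1-negative libraries lay below all others, and the fold change against untreated was -0.62 (SE 0.11, edgeR adjusted p = 0.00155). Setd1b, a promoter H3K4 methyltransferase, was lower by a smaller step (-0.45, edgeR adjusted p = 0.0211). Kmt2a, for which 84.9, 68.1 and 145 CPM in untreated libraries met 32.4, 77.1 and 36.2 in Rspo1-negative ones, fell by 1.07 with overlapping groups. Of its paralogs, Kmt2b (-0.18, edgeR adjusted p = 0.526) and Kmt2d (-0.71, 0.0666) were not called. Setd1a (-0.05) and Setdb1 (-0.04), an H3K9 methyltransferase, were close to 0. Of the annotated exon bases of Setd1a, 51.8% are shared with the same-strand gene model Gm49388, so its counts are uncertain.

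**Figure D1:**
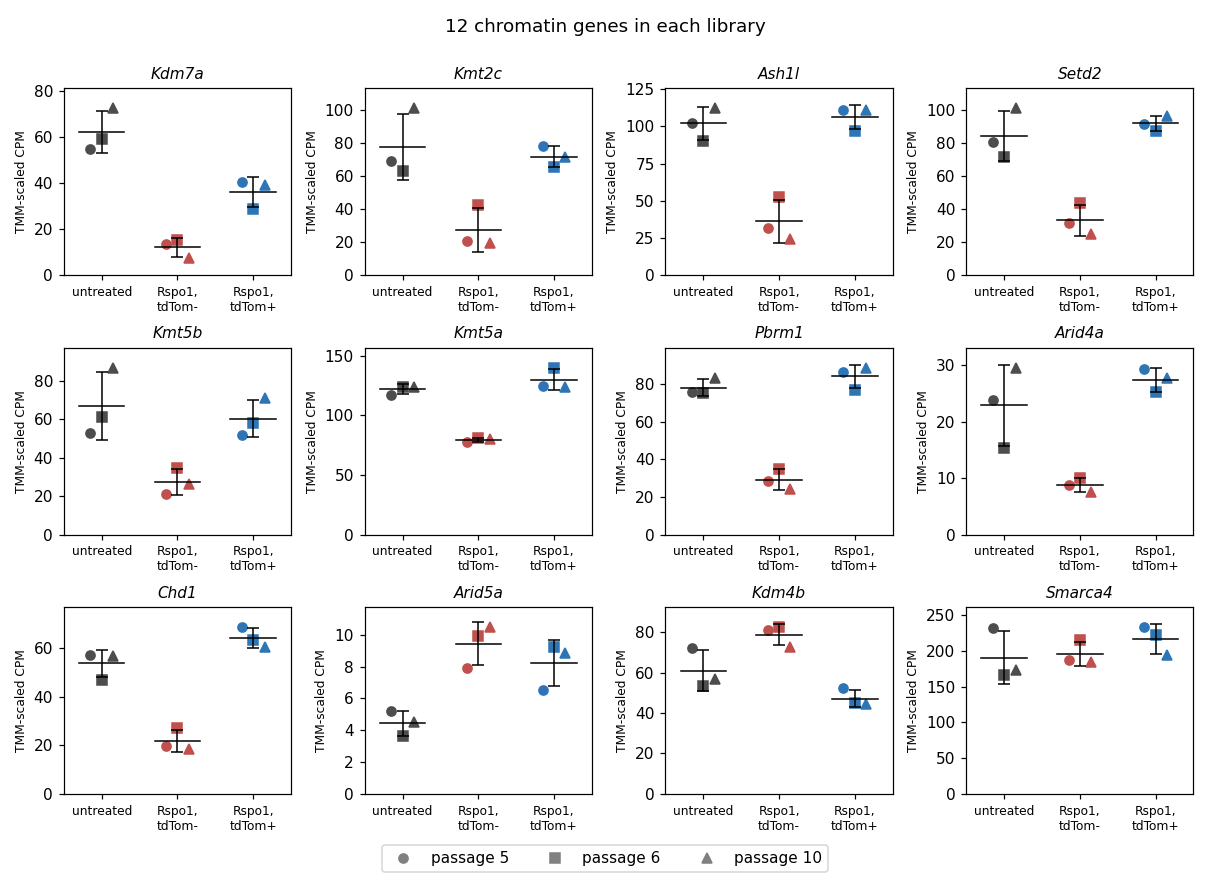
TMM-scaled CPM (vertical axes, from 0) of 12 members in the 9 libraries, by group; marker shape gives the passage, and bars give mean and SD (n = 3). In 9 of them, Kdm7a to Chd1, the Rspo1-negative libraries are the lowest, Arid5a and Kdm4b run the other way against untreated, and Smarca4 overlaps in all groups.

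Within SWI/SNF the subunits divided. Pbrm1, a subunit of the PBAF form, read 75.6, 75.1 and 83.3 CPM in untreated, 28.7, 34.9 and 24.0 in Rspo1-negative, and 86.5, 76.7 and 88.7 in Rspo1-positive libraries, a change of -1.42 from untreated to Rspo1-negative cells (SE 0.15, edgeR adjusted p = 0.000163). Arid2, another PBAF subunit, fell by 1.0, while Brd7, also of PBAF, was not called (-0.23, edgeR adjusted p = 0.126). Arid1b (-0.67) and Arid1a (-0.58), which define the canonical BAF form, fell less in this fit, a difference that was not tested. Over the alternative fits Arid2 ran from -1.21 to -0.45 and Arid1a from -0.78 to -0.42. Transcript GC was 41.8% in Pbrm1 and 45.9% in Arid2, against 52.9% in Arid1b and 56.7% in Arid1a. The ATPase Smarca2 was lower (-0.58, edgeR adjusted p = 0.027), whereas its alternative Smarca4 read 233, 167 and 173 CPM in untreated and 188, 215 and 185 in Rspo1-negative libraries and was not called (0.05, SE 0.14). Smarcb1, a core subunit, and Smarcd2 were higher, by 0.32 and 0.38. The 6 subunits called lower were Arid1a, Arid1b, Arid2, Pbrm1, Smarca2 and Smarcc1. With an offset for GC and length, described below, 13 of the 15 subunits lay below 0, against 57.6% of all genes. In that fit 5 were called lower and none higher (all genes 13.3% and 7.40%).

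Of the other SNF2 ATPases, Chd1, which binds H3K4 trimethylation at active genes, went from 57.4, 47.1 and 56.8 CPM in untreated to 19.9, 27.0 and 18.7 in Rspo1-negative libraries, and stood at 68.9, 63.3 and 60.5 in Rspo1-positive ones. The change against untreated was -1.31 (SE 0.16, edgeR adjusted p = 0.000254). Smarca5, the ATPase of the ISWI complexes, fell by 0.99 and Ep400, the ATPase that deposits H2A.Z, by 0.51. Chd8, a remodeler that binds beta-catenin, fell by 0.45. Chd3 (-0.40, edgeR adjusted p = 0.15), Chd4 (-0.29, 0.147) and Chd7 (-0.59, 0.144) were not called.

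The demethylases held the largest fall, that of Kdm7a. Kdm5a, an eraser of H3K4 trimethylation, fell by 1.02 (SE 0.13), Kdm5b by 0.47 and Kdm6b, which erases H3K27 trimethylation, by 0.47. Kdm4b, an H3K9 demethylase, was higher, at 72.4, 53.4 and 56.9 CPM in untreated against 81.3, 82.7 and 72.7 in Rspo1-negative libraries (log2 fold change 0.38, SE 0.12, edgeR adjusted p = 0.0256). Its lowest Rspo1-negative library lay just above the highest untreated one. Kdm1a (-0.11), Kdm2a (-0.32), Kdm3a (-0.20) and Kdm4a (-0.14) were not called.

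Arid4a and Arid4b, partners of the Sin3 deacetylase complex, fell by 1.34 and 1.46. Arid5a was the largest rise: 5.20, 3.61 and 4.52 CPM in untreated, 7.90, 9.92 and 10.5 in Rspo1-negative and 6.55, 9.24 and 8.84 in Rspo1-positive libraries. The untreated libraries were the 3 lowest, and the log2 fold change in Rspo1-negative cells was 1.07 (SE 0.20, edgeR adjusted p = 0.00269). Brd3os, at 4.26 to 7.06 CPM in untreated and 6.79 to 8.97 in Rspo1-negative libraries, was called higher (0.51) with overlapping groups. None of the 5 bromodomain genes was called in edgeR or DESeq2 without an offset for GC and length, though 2 had an unadjusted p under 0.05 in edgeR. With that offset, described below, 2 of the 5 were called lower in edgeR. Brd2 was at 0.11 (edgeR adjusted p = 0.533).

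**Figure D2:**
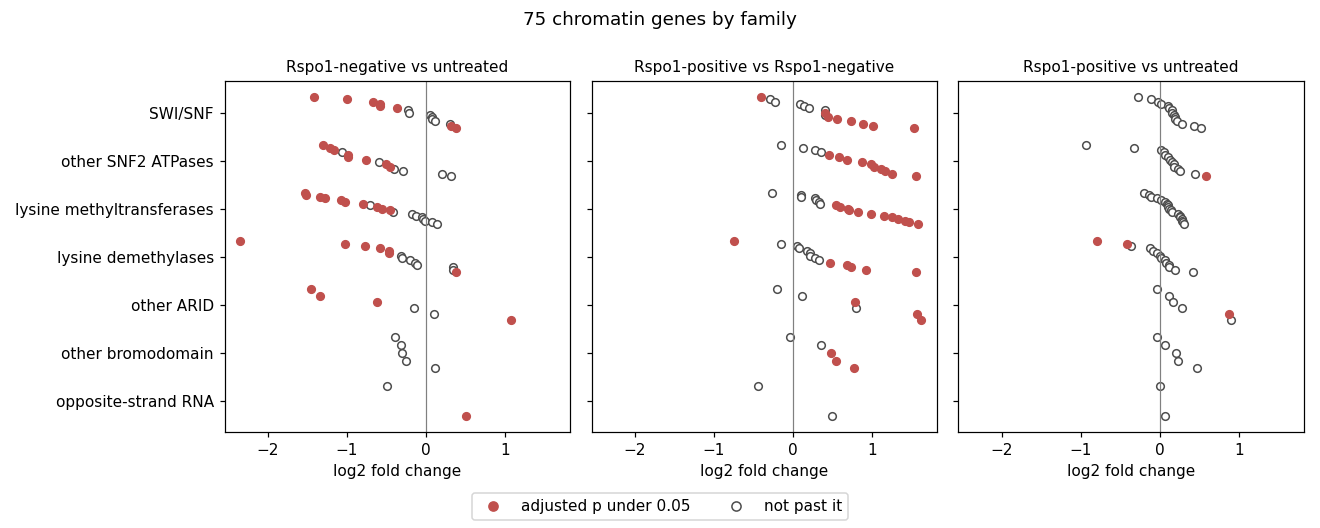
Log2 fold changes (horizontal axes) of the 75 tested members by family in the 3 comparisons of groups; filled points passed an adjusted p of 0.05. Most filled points lie left of 0 in Rspo1-negative against untreated (33 of 38) and right of 0 in Rspo1-positive against Rspo1-negative (40 of 42), and 4 points are filled in the right panel.

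The second comparison set the reporter-positive against the reporter-negative cells of the same treated cultures. In Rspo1-positive cells 40 of 75 members were higher and 2 lower, against 21.5% higher and 17.4% lower among all genes tested. The median log2 fold change was 0.48 (0.03 over all genes), and 65 of 75 members lay above 0. Of the 5 bromodomain genes outside SWI/SNF, 3 were higher and none lower. In 47 members every Rspo1-positive library was above every Rspo1-negative one, against 24.6% of all genes, and in 4 every one was below, against 20.6%. The comparison shares its Rspo1-negative libraries with the first, so 32 genes called lower there and higher here are not 2 separate observations.

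The 5 largest rises were Arid4a (1.62, SE 0.21, edgeR adjusted p = 0.000432), Ash1l (1.58), Arid4b (1.57), Kdm7a (1.56) and Chd1 (1.56, SE 0.16). For Arid4a this was 8.76, 10.1 and 7.62 CPM in Rspo1-negative against 29.4, 25.2 and 27.7 in Rspo1-positive libraries, with the untreated ones at 23.9, 15.3 and 29.6. Pbrm1 rose by 1.53, Setd2 by 1.47, Kmt2c by 1.42 and Kmt2a by 1.33.

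Several enzymes not called in the first comparison were called here; whether the 2 changes differ in size was not tested. Kmt2d rose by 0.99 (SE 0.28), from 46.3, 125 and 80.6 CPM to 163, 157 and 157, and the Rspo1-positive libraries hardly differed among themselves. Chd7 rose by 1.03 from 6.36, 13.6 and 8.09 CPM to 20.1, 17.5 and 19.1. Chd3 rose by 0.58. Smarca2, called lower in the first comparison, went from 25.7, 38.9 and 27.6 CPM to 61.7, 61.4 and 59.9, a rise of 1.01 (SE 0.18, edgeR adjusted p = 0.0018). Smarca4, at 234, 222 and 194 CPM in Rspo1-positive libraries, was not called (0.14, SE 0.14).

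The 2 members called lower were Kdm4b and Smarcd2. Kdm4b fell to 52.2, 44.9 and 44.4 CPM, below both other groups, with a log2 fold change of -0.75 against Rspo1-negative cells (SE 0.12, edgeR adjusted p = 0.000984). Smarcd2 moved from 131, 137 and 110 CPM to 95.7, 103 and 86.9 (-0.40, SE 0.11, edgeR adjusted p = 0.0126).

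Rspo1-positive and untreated cells, which differ in both treatment and reporter state, had few members called. These were 2 higher members, Arid5a (0.87, SE 0.20, edgeR adjusted p = 0.0161) and Chd1l (0.58, SE 0.14, edgeR adjusted p = 0.0189), and 2 lower ones, Kdm7a (-0.79, SE 0.23, edgeR adjusted p = 0.0426) and Kdm5b (-0.42, SE 0.12, edgeR adjusted p = 0.0445). Among all genes 6.44% were higher and 6.77% lower, and the members' median was 0.11 against 0.00 over all genes. Of the 75 members 58 lay above 0, while 50.2% of all genes lay below 0. Every Rspo1-positive library lay above every untreated one in 11 members (11.4% of all genes) and below in 4 (11.8%). Chd1l, a remodeler recruited to DNA damage by poly-ADP-ribose, read 9.91, 10.8 and 9.21 CPM in untreated and 14.5, 15.6 and 14.7 in Rspo1-positive libraries. Kdm5b read 88.4, 95.7 and 80.9 CPM against 67.2, 64.2 and 66.2, and its Rspo1-negative libraries (55.6, 75.0 and 61.9) overlapped with the latter. The 4 calls did not hold in every fit with 1 library left out. Without the Rspo1-positive library of passage 6 or that of passage 10 none was left. In those 2 fits 7 and 9 members had an unadjusted p under 0.05 in edgeR. DESeq2 on all libraries called 4. The 3 comparisons share libraries pairwise, and 28 members were called in none of them.

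The counts in the first 2 comparisons moved both ways when 1 library was left out. Called members ranged from 22 to 54 in the first and from 28 to 54 in the second. Leaving out the Rspo1-negative library of passage 5 or that of passage 10 left 22 members called against untreated, and without the untreated library of passage 5 or of passage 10 it was 24. Against Rspo1-negative cells, Rspo1-positive cells had 28 called members without the Rspo1-negative library of passage 5 or of passage 10. Of the rises against untreated, when each of the 9 libraries was left out in turn, Smarcb1 missed the threshold 7 times, Brd3os 6 times and Smarcd2 and Kdm4b 4 times each, while Arid5a passed it every time. Among the named falls, Ep400 missed it 5 times, Arid1a, Chd8, Kdm6b, Kmt2a and Setd1b 4 times each and Kdm5b and Smarca2 3 times each. Among the changes from Rspo1-negative to Rspo1-positive cells, Chd3 missed it 6 times and Chd7, Kmt2d and Smarcd2 3 times each.

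Passages did not contribute equally. Comparing the Rspo1-negative with the untreated library of the same passage, the median log2 difference of the 75 members was -0.58 at passage 5, -0.01 at passage 6 and -0.55 at passage 10. Over all genes these medians were -0.04, 0.0 and -0.01. Of the 75 members, 63, 38 and 61 were lower. Of the members, 37 were lower at all 3 passages. Between the Rspo1-positive and Rspo1-negative libraries the medians were 0.69, 0.31 and 0.53 (all genes 0.06, 0.01 and 0.01), and 57 members were above at all 3 passages. Without passage 6, an alternative chosen after the data were seen, 48 members were lower and 8 higher in Rspo1-negative against untreated cells. The share of all genes is not given for the counts in this paragraph, so they cannot be set against a background.

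The members' fold changes followed their transcripts' composition. Members have a median transcript length of 5864 bases, against 2681 over all genes with an annotated length, and a median GC content of 51.3% against 50.3%. Across the 75 members, which are not independent replicates, the log2 fold change in Rspo1-negative against untreated cells rose with GC (Spearman's rho 0.662) and fell with length (rho -0.677), and over 17001 genes of all kinds the same rank correlations were 0.518 and -0.324. Over 74 coding members rho was 0.558 with the GC of the coding sequence and 0.465 with that of the 3' UTR. With their lengths it was -0.57 and -0.487. The 2 parts of the transcript, and GC and length, were not separated here. The 33 members called lower had median coding sequences of 4926 bases and 49.2% GC, and the 36 not called 3026 bases and 54.4%. In Rspo1-positive against untreated cells rho with GC was 0.0889 among the members.

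Divided by GC into 3 classes of 25, the lowest class (39.6 to 47.9% GC) had 22 members lower and none higher in Rspo1-negative against untreated cells, the middle class 8 and none, and the highest class (54.0 to 60.0%) 3 lower and 5 higher. The median fold changes were -1.02, -0.32 and -0.01. Median transcript length also differed between the classes, at 7411, 5419 and 4657 bases, so this division does not separate GC from length. In the second comparison 23, 11 and 6 members of these classes were higher. All genes showed a trend of the same sign: the 3400 genes lowest in GC (up to 44.4%) had a median of -0.67 in the first comparison and the 3401 highest (from 55.9%) 0.27.

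**Figure D3:**
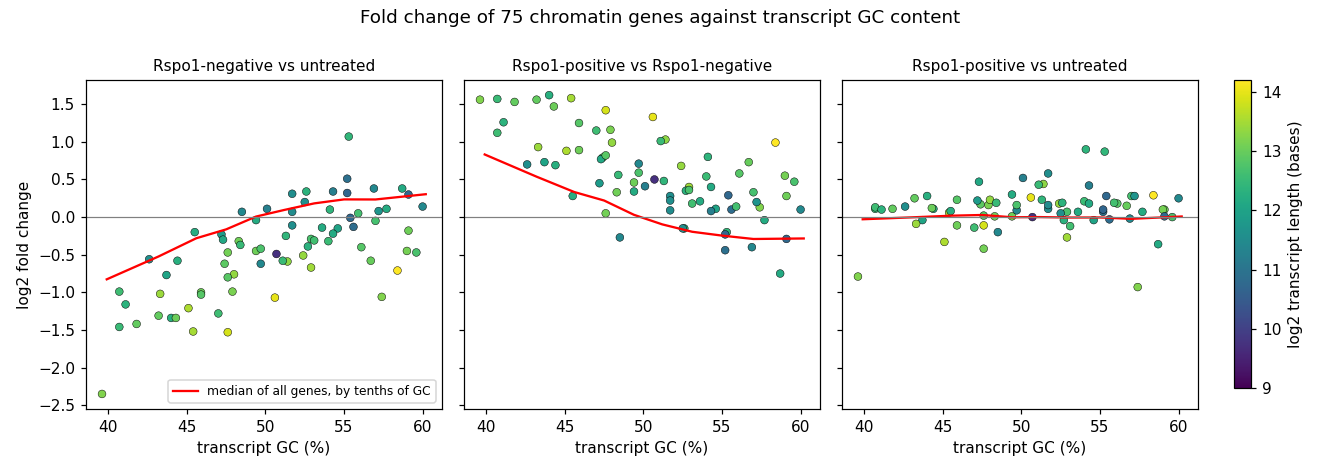
Log2 fold change (vertical axis) of the 75 members against transcript GC content (horizontal axis) in the 3 comparisons, colored by log2 transcript length, with the median of all genes in 10 GC bins as a red line. Members low in GC lie lowest in the first panel and highest in the second, and the right panel is flat (rho 0.0889).

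The trend was present inside each passage, at different sizes. Members of the lowest GC class differed between Rspo1-negative and untreated libraries by a median of -1.10 at passage 5, -0.59 at passage 6 and -1.56 at passage 10, and members of the highest class by -0.35, 0.36 and -0.31. At passage 6, then, members low in GC were lower and members high in GC higher, and the median over all 75 was near 0.

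**Figure D4:**
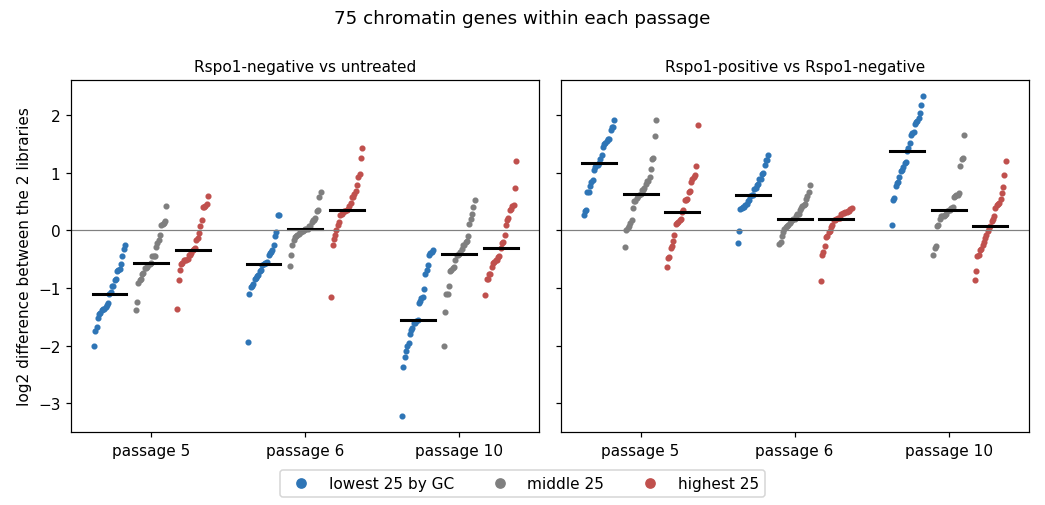
Log2 difference of each of the 75 members between the 2 libraries of the same passage (vertical axis), by passage and by class of GC content, 25 members each; black lines are medians. In Rspo1-negative against untreated libraries the lowest class (blue) lies below the highest (red) at every passage, and the passage 6 medians run from -0.59 to 0.36.

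To give fold changes relative to genes of like GC and length, the trend of each library over all genes was entered as an offset. The first comparison then had 24 members lower and 1 higher, where 13.3% of all genes were lower and 7.40% higher, and the median was -0.25 against -0.08 over all genes. Of the 33 members lower without the offset, 20 were also lower with it. In the second comparison 37 members were higher and 2 lower with the offset (all genes 14.0% and 7.94%), and 27 were higher both ways. The 37 included 4 of the 5 bromodomain genes outside SWI/SNF. In Rspo1-positive against untreated cells 2 were higher and 3 lower (all genes 7.45% and 8.51%). The offset removes whatever part of a change runs with GC and length, technical or not, and which it is was not tested.

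Members differed in how much was left. Kdm7a kept -1.29 (edgeR adjusted p = 0.000989) in Rspo1-negative against untreated cells, Kmt5b -0.95, Kmt2c -0.92, Arid4a -0.90, Ash1l -0.82, Setd2 -0.69, Arid4b -0.68, Pbrm1 -0.59 and Chd1 -0.58, all still called lower. Kmt5a was -0.75 (edgeR adjusted p = 0.000758), a larger fall than without the offset, and Kdm6b (-0.51) and Arid1a (-0.50) hardly moved. Kdm5a shrank from -1.02 to -0.17 (edgeR adjusted p = 0.195), Smarca5 from -0.99 to -0.18 and Kdm5b from -0.47 to -0.01, and these were no longer called. Kmt2a (-0.62), Ep400 (-0.23) and Chd8 (-0.12) also lost their calls. Of the rises only that of Arid5a was still called (1.0, edgeR adjusted p = 0.00702), while Kdm4b was at 0.19, Brd3os at 0.12, Smarcd2 at 0.04 and Smarcb1 at -0.09.

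In Rspo1-positive against Rspo1-negative cells, Arid4a (1.15), Smarca2 (0.93), Kmt2a (0.93), Ash1l (0.86), Kmt5a (0.82), Kmt2d (0.82), Chd1 (0.81) and Pbrm1 (0.68) were called higher with the offset, and Kdm4b (-0.51) lower. Smarcd2 (-0.03) was no longer called lower. Kdm7a (0.50), Kdm5a (0.06), Smarca5 (0.31) and Arid2 (0.30) were not called. Kdm5b, at 0.05 without the offset, was called lower with it (-0.45, edgeR adjusted p = 0.0124). Against untreated cells the fall of Kdm7a (-0.78) and the rise of Arid5a (0.90) were the same size either way, and the fitted trend between these groups had a median of -0.01 over the members.

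**Figure D5:**
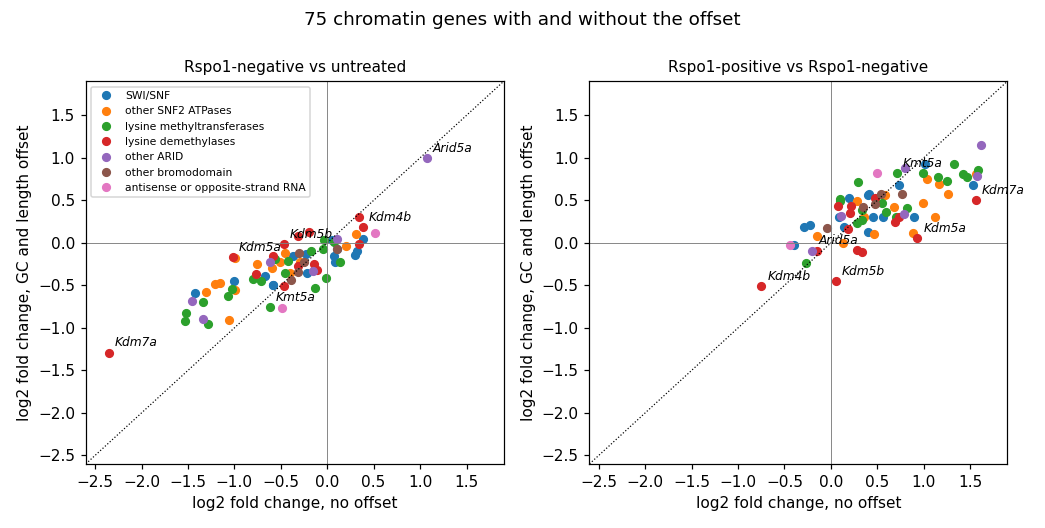
Log2 fold change of the 75 members with the GC and length offset (vertical axis) against that without it (horizontal axis) in 2 comparisons; the dotted line marks equality and colors mark families. Kdm7a moves from -2.35 to -1.29, and Kmt5a and Arid5a lie near the dotted line in the first panel.

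Few members differed between passages. Passage and replicate number coincide in the labels, so passage cannot be told apart from anything else that differed between the replicates. Between passages 10 and 5, Smarcd1 (0.86, SE 0.14, edgeR adjusted p = 0.00475), Brd9 (0.70) and Setd1a (0.60) were higher and Arid5b (-0.62) and Kdm1b (-0.42) lower, where 4.57% of all genes were higher and 4.50% lower. Smarcd1 read 18.2, 17.7 and 22.7 CPM in the untreated, Rspo1-negative and Rspo1-positive libraries of passage 5 and 36.2, 34.3 and 35.2 in those of passage 10. Brd9, the bromodomain subunit of the noncanonical BAF form, read 16.1, 15.3 and 22.6 against 29.3, 25.9 and 30.8. Between passages 6 and 5 Smarcd3 alone was called (0.62), against 1.16% of all genes higher. Smarcd3 shares 48.2% of its exon bases with Chpf2 on the other strand, and whether the counting used strand is not given in the sources used here.

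Other chromatin genes, in 9 lists of 156 genes chosen with earlier results known (Polycomb, acetyltransferases, deacetylases, NuRD, ISWI and INO80 partners, COMPASS and SWI/SNF subunits, DNA methylation enzymes, other lysine enzymes), were tested for 150. Against untreated cells 50 were lower and 28 higher in Rspo1-negative cells (all genes 20% and 15.5%), and 27 and 12 with the offset (all genes 13.3% and 7.40%). From Rspo1-negative to Rspo1-positive cells 68 were higher and 10 lower (all genes 21.5% and 17.4%), and 52 and 5 with the offset (all genes 14.0% and 7.94%). Counts of single lists are small and are given as a description. Histone acetyltransferases had 9 of 17 lower and 1 higher in the first comparison (median -0.54), and 5 and 1 with the offset (median -0.26). Histone deacetylases ran the other way without the offset, with 4 lower and 7 higher of 21 (median 0.25). With the offset the deacetylases had 3 lower and 1 higher. Polycomb genes had 11 lower and 5 higher of 30, and 2 and 2 with the offset. The listed COMPASS subunits, partners of the Kmt2 and Setd1 enzymes, had 2 lower and 3 higher of 11, and 1 and 1 with the offset.

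The extremes of these lists without the offset were Atrx, an H3.3-associated ATPase, at -1.79 (edgeR adjusted p = 0.000345; -0.69 with the offset) and Uhrf1, which recruits the maintenance DNA methyltransferase in S phase, at 1.73 (edgeR adjusted p = 0.000138; 1.51 with the offset) in the first comparison. From untreated to Rspo1-positive cells Uhrf1 rose by 2.51 on the log2 scale. Hells, a remodeler needed for DNA methylation, was the largest rise from Rspo1-negative to Rspo1-positive cells (2.15, and 1.22 with the offset) and Hdac11 the largest fall (-0.80, and -0.41 with the offset). With the offset other genes were the extremes: Tet2 (-1.01) was the largest fall in the first comparison, and Suv39h2 (1.33) the largest rise and Rbbp4 (-0.78) the largest fall in the second. Between Rspo1-positive and untreated cells 18 of the 150 were higher and 2 lower (all genes 6.44% and 6.77%). The 2 lower were Mecom (-0.49) and, named after its value was seen, Hdac5 (-0.47). With the offset 24 were higher and 2 lower (all genes 7.45% and 8.51%).

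Promoters of 58 of the 79 members, 77 in all, were in the RefSeq table for GRCm38.p6 (250 bases before to 50 after the start). Their median GC content was 65.7%, against 52.7% over 32851 promoters. The letters CTTTGAT, a form of the TCF/LEF motif, were found on either strand in 1 of the 77 (Kmt2d) and in 3.73% of all promoters, and CTTTGAA in 1 (Kdm8) and in 5.14%.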

How the data were processed

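The 9 libraries of sorted organoid cells were single-end sequenced (total RNA). Per the submitters' processing notes, reads were handled with Trimmomatic 0.35, FastQC 0.11.2, STAR 2.5.1b, featureCounts and DESeq2 on GRCm38; annotation and strand setting are not given in the sources used here. The authors deposited raw read counts per gene and FPKM, and a table of log2 fold changes with p-values. In the authors' deposited table, 73 members were listed, with 30 lower and 2 higher in Rspo1-negative against untreated cells (15.7% and 11.3% of its 15807 genes).

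Counts were fitted with edgeR 4.0.16 (R 4.3.3): TMM, filterByExpr (minimum count 10, minimum total 15), group and passage in the model over all 9 libraries, 17011 genes. SE is the absolute log2 fold change divided by the square root of F. The fits were also run on simulated counts with a GC trend in the Rspo1-negative group and no length trend or passage effect. No result of that run is used here. Deviations from group means correlated at 0.123 to 0.573 between the 9 pairs of libraries of one passage and at -0.476 to 0.0826 between the 18 others, and the labels name the passage, so it was kept as a block. Differences within a passage are of log2(CPM + 0.1). GC and length are those of the longest coding transcript (GENCODE vM21); the offset is a smooth of both per library (mgcv 1.9.3). DESeq2 1.42.0, other scalings, no filter and leaving out each library were alternatives. Members and lists were chosen with earlier results of these data known. Named were, per comparison of groups, the 5 largest rises and falls among called members with mean log2 CPM above 2, and fixed well-known enzymes; the others were named after their values were seen.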

Additional observations from a re-analysis of the deposited data

How the results depend on the processing

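Of 2214 alternative values for 123 named gene and comparison pairs, 1955 kept direction and call, 191 lost the call, 64 gained it and 4 reversed: with the GC and length offset, with or without the block, Kdm5b in Rspo1-positive against Rspo1-negative cells was -0.45 and Smarcb1 in Rspo1-negative against untreated cells -0.09. In 83 values called in neither fit, over 32 pairs, the sign differed. Medians of the members kept their direction in every alternative run; leaving out 1 library gave -0.53 to -0.28, 0.41 to 0.61 and 0.02 to 0.20 in the 3 comparisons.

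Members called in Rspo1-negative against untreated cells were 25 without the replicate block, 25 with the offset and 14 with the offset but no replicate block, and 22 to 54 when 1 library was left out. In Rspo1-positive against Rspo1-negative cells they were 19 with the offset and no replicate block, and 28 to 54 with 1 library left out. In Rspo1-positive against untreated cells they were 1 without the replicate block, 2 with upper-quartile scaling and 0 to 5 with 1 library left out. For passage 10 against 5 they were 10 with the offset, 10 with no filter, 9 with DESeq2 and 1 to 10 with 1 library left out; for passage 6 against 5, 2 with the offset and 0 to 4. The cause was not tested. Leaving out the block reversed no named call. Other scalings moved the median of all genes by at most 0.07. Genes at few CPM, such as Arid5a and Brd3os, rest on the fewest reads.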
